A study of Rattus norvegicus with 12 samples.

Results

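The genes described here take fatty acids into the heart muscle cell, activate them, carry them into the mitochondrion and burn them there by β-oxidation. The list held 38 genes, taken by symbol for their role in the pathway with earlier results of these data known. Of these, 36 had a row among the 34700 genes of the count table and 35 had enough counts to be tested. Cd36 and Eci2 had no row under those symbols and were not analysed here, and Pnpla2, at 0 to 21 counts per rat, was below the filter on low counts. The question was how these messenger RNAs differed between the 4 groups of a rat model of heart failure after myocardial infarction. Left ventricular RNA of 12 male Sprague-Dawley rats was sequenced, with 3 rats in each group. In the HF, HFE and BAIBA groups the left anterior descending coronary artery had been ligated at the age of 8 weeks, and in the Sham group a thread was passed around the artery without tying it. Hearts were removed 12 weeks after surgery. HFE rats had 8 weeks of treadmill training, with 60 min of running on each of 5 days a week. BAIBA rats received β-aminoisobutyric acid (BAIBA), a small molecule that skeletal muscle releases during exercise, by gavage at 75 mg/kg per day for 8 weeks. HF rats are labelled sedentary and Sham rats as sham-operated. The methods describe separate exercise and BAIBA experiments, each with Sham and HF groups, of which those in the BAIBA experiment were gavaged with water, and from which of them the sequenced Sham and HF rats came is not given in the sources used here. A supplementary protocol instead gives BAIBA to Sham and HF rats. The sample labels read HF+Med and name no drug. They were read here as the HF rats given BAIBA in the methods. The methods give the left ventricular anterior wall for the sequenced tissue, and name the area around the infarct for the BAIBA group only. The results text of the paper places the tissue around the infarct in both HF and BAIBA rats. For HFE rats the position relative to the infarct is not given in the sources used here. Each library stands for 1 rat, and p-values measure only the spread between these 3 rats per group.

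The adult heart draws most of its energy from long-chain fatty acids. They are freed from circulating triglyceride by lipoprotein lipase, cross the cell membrane with the help of transport proteins, are joined to coenzyme A by acyl-CoA synthetases and enter the mitochondrion through the carnitine shuttle, whose first enzyme, carnitine palmitoyltransferase 1, is inhibited by malonyl-CoA. Inside, each turn of the β-oxidation spiral dehydrogenates, hydrates, oxidizes and cleaves the chain, and the electrons of the first step pass to the respiratory chain through the electron transfer flavoprotein. In failing hearts a move away from fatty acid use towards glucose is a widely described feature, and many of the genes are targets of the nuclear receptors PPAR and ERR.

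The libraries held between 14812541 and 19732588 counts, and the 36 genes together took 1.34% to 1.62% of them. Their mean share was 1.46% ± 0.0119 (SD, n = 3) in Sham, 1.46% ± 0.102 in HF, 1.48% ± 0.125 in HFE and 1.5% ± 0.105 in BAIBA rats. Levels of 1 gene between rats are given as CPM, a gene's counts relative to the library total after scaling by TMM factors, and levels between genes as the deposited FPKM values, which are per length. The 8 cardiomyocyte markers were high in every library, with summed levels of 45948 to 47580 CPM in Sham, 39094 to 40433 CPM in HF, 39329 to 45664 CPM in HFE and 38651 to 45969 CPM in BAIBA rats. The sums in the HF rats lay below those in the Sham rats. The marker that differed most was Myh6, the α myosin heavy chain. It was 17422 to 19603 CPM in Sham and 11252 to 13878 CPM in HF rats. Pln was also lower in all HF rats, at 3154 to 3642 CPM beside 3867 to 4122 CPM in Sham rats. Myh6 was left out after its values were seen. The other 7 markers then summed to 27615 to 28526 CPM in Sham and 26554 to 27842 CPM in HF rats. They summed to 26528 to 27632 CPM in BAIBA rats, and these 3 groups overlap. The HFE rats, at 30202.5 to 34493 CPM, lay above all others in this sum. Myh6 was 9127 to 13299 CPM in the HFE rats, and with it their sums lay below those of the Sham rats. In HFE against HF, 6 of the 8 markers had a higher mean, and Myh6 and Ryr2 a lower one.

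No member of the list passed an adjusted p of 0.05 in any comparison by edgeR's quasi-likelihood test with Benjamini-Hochberg adjustment over all genes tested. The estimates were small apart from those of Acot1, a gene of low counts. Its log2 fold changes were -1.46 in HFE against HF, -1.42 in HFE against Sham and 1.09 in BAIBA against HFE. In HF against Sham, 23 of the 35 genes had a higher and 12 a lower mean, with a median log2 fold change of 0.055 beside 0.0088 over all 14957 genes tested. In HFE against HF, 21 were higher and 14 lower, with a median of 0.023 beside -0.0094 over all genes. In BAIBA against HF, 21 were higher and 14 lower, with a median of 0.011 beside -0.0098 over all genes. Adjusted p was under 0.05 for 0% of all genes in each of these 3 comparisons and in HFE against Sham, for 0.0402% in BAIBA against Sham (6 genes) and for 0.108% in BAIBA against HFE (16 genes, or 50 with the replicate number as a block). The exact permutation test of a single gene can reach no p below 0.1 with 3 rats against 3. In bulk tissue, fewer cells of a type and less RNA per cell cannot be told apart.

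At an unadjusted p under 0.05, 3 of 35 members (8.57%) passed in HF against Sham, beside 6.0% of all genes tested. In HFE against HF 5 members (14.3%) passed beside 7.62% of all genes, and in BAIBA against HF 2 members (5.71%) passed beside 5.55%. In BAIBA against Sham 5 members (14.3%) passed beside 7.41%, in HFE against Sham 6 members (17.1%) beside 11.2%, and in BAIBA against HFE 3 members (8.57%) beside 9.57%. The values of the rats of both groups did not overlap for 5 members (14.3%) in HF against Sham, where this held for 11.8% of all genes. The count was also 5 in HFE against HF beside 14.4% of all genes, and 5 in BAIBA against HF beside 11.4%. It was 7 (20%) in BAIBA against Sham beside 12.7%, 8 (22.9%) in HFE against Sham beside 17.7%, and 6 (17.1%) in BAIBA against HFE beside 15.5%. These comparisons share groups and are not independent of each other. In the test among the 4 groups over all 12 rats, 0 members and 0% of 15617 genes passed an adjusted p of 0.05 by edgeR, and 5 members (14.3%) passed an unadjusted p of 0.05 beside 9.71% of all genes. With DESeq2, 1 member passed among the 4 groups, 2 in BAIBA against Sham and 1 in BAIBA against HFE, and 0 passed in the other comparisons. Over all genes DESeq2 also called more than edgeR in every comparison. It called 333 of all genes among the 4 groups, and its counts in the other comparisons are given with the processing below. The genes are named below with their values.

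The intervals of the fold changes bound how much each member could have differed. The 95% interval, taken for 1 gene at a time, lay inside a 2-fold change in both directions for 34 of 35 members (97.1%) in HF against Sham, beside 73.8% of all genes tested. In HFE against HF this was so for 34 members (97.1%) beside 72.3% of all genes, and in BAIBA against HF for 33 members (94.3%) beside 70.2%. In HF against Sham the gene outside was Acot1. In BAIBA against HF the genes outside were Acot1 and Echs1, both measured at low counts. An interval inside log2 values of -0.5 and 0.5 held for 21 members (60%) in HF against Sham, beside 41.6% of all genes. It held for 21 in HFE against HF beside 38.7%, and for 22 (62.9%) in BAIBA against HF beside 34.5%. Members and all genes were not matched for count level, on which the width of an interval depends. The SD of a member within groups had a median of 0.184 on the log2 scale, beside 0.222 over all genes tested. The SD ran from 0.080 for Etfb to 0.803 for Acot1.

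**Figure D1:**
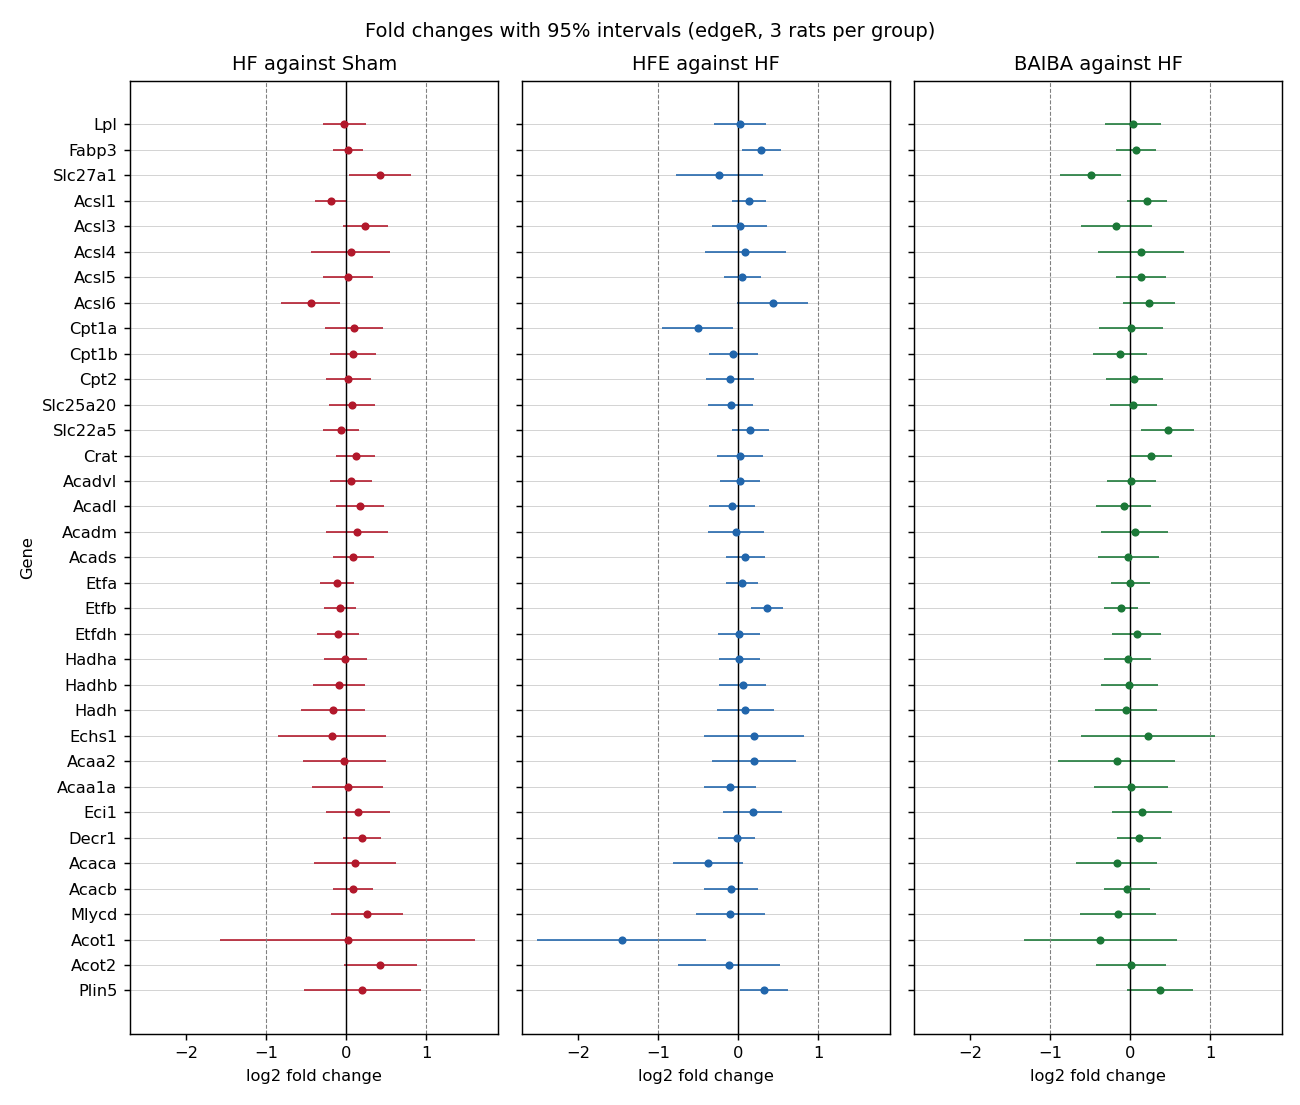
The log2 fold change of each tested gene (horizontal axis) in each of the comparisons named above the panels, with 3 rats per group. Points are edgeR estimates, bars their 95% intervals and dashed lines a 2-fold change. Intervals of 34, 34 and 33 of the 35 genes stay between the dashed lines, and those of Acot1 are the widest.

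Levels spanned more than 4 orders of magnitude. Fabp3, the fatty acid binding protein of heart muscle, had the highest mean at 2300.4 FPKM over the 12 rats, and 25 genes of the whole table had a higher mean. Lpl (lipoprotein lipase) followed with 872 FPKM, then Acadl (long-chain acyl-CoA dehydrogenase) with 837 FPKM, Hadhb with 552 FPKM and Acadm with 415 FPKM. The carnitine shuttle lay lower, with Crat at 153, Cpt1b at 125, Slc25a20 at 123 and Cpt2 at 68.4 FPKM. At the low end were Acsl4 with 2.75, Acaca with 2.16, Echs1 with 1.53, Acot1 with 0.606 and Pnpla2 with 0.0877 FPKM. Echs1, the short-chain enoyl-CoA hydratase of the spiral, and Pnpla2, the adipose triglyceride lipase, were listed far below their partner enzymes in all 12 rats, and where their reads were counted was not tested.

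**Figure D2:**
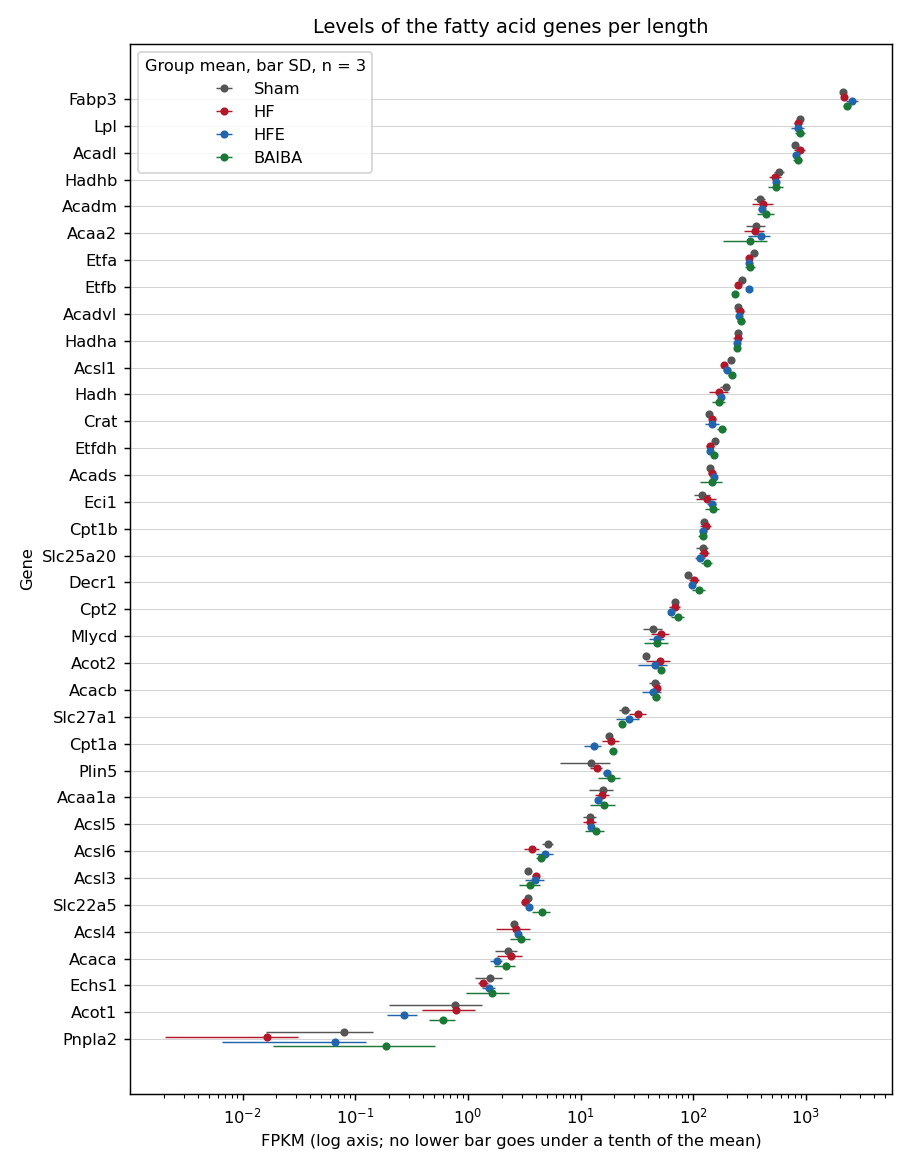
Mean FPKM of each of the 36 genes on a log axis, with 1 point per group and bars of 1 SD over 3 rats (no lower bar is drawn under 0.1 of the mean). Genes are sorted by their mean over all rats, from Fabp3 at 2300 FPKM to Pnpla2 at 0.088 FPKM, and the group means of most genes lie close together.

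Among the uptake genes, Lpl messenger RNA was 3330.1, 3149 and 3146 CPM in the Sham rats, 2713, 3281 and 3498 CPM in the HF rats, 2814, 3055 and 3797 CPM in the HFE rats and 2711, 3468 and 3554 CPM in the BAIBA rats. The HF, HFE and BAIBA groups each spanned the 3 Sham rats. The fold in HF against Sham was 0.984 (95% interval 0.819 to 1.18) and in BAIBA against HF 1.02 (95% interval 0.803 to 1.31). Fabp3 was 1633, 1570.3 and 1670.0 CPM in the Sham rats, 1586, 1658 and 1716 CPM in the HF rats, 1886, 1841 and 2327 CPM in the HFE rats and 1766, 1831 and 1604 CPM in the BAIBA rats. The 3 HFE rats lay above all other 9 rats. In HFE against HF the fold was 1.22 (95% interval 1.03 to 1.45), with a log2 fold change of 0.29, SE 0.10, adjusted p = 0.634 by edgeR, and in HFE against Sham 1.25 (95% interval 1.07 to 1.45), with adjusted p = 0.316. Slc27a1, a fatty acid transport protein of the cell membrane, was 71.0, 77.3 and 85.1 CPM in the Sham rats, 79.1, 110.1 and 124 CPM in the HF rats, 67.2, 85.1 and 113 CPM in the HFE rats and 71.2, 72.9 and 78.0 CPM in the BAIBA rats. HF rats 2 and 3 and HFE rat 3 were the highest of the 12, and the BAIBA rats lay below the HF rats. The fold was 1.34 (95% interval 1.02 to 1.75) in HF against Sham (adjusted p = 0.805, edgeR) and 0.709 (95% interval 0.546 to 0.922) in BAIBA against HF (adjusted p = 0.851, edgeR). Both comparisons rest on the same HF rats.

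Of the acyl-CoA synthetases, which activate fatty acids, Acsl1 held 88.2% to 91.4% of the summed FPKM of the 5 Acsl genes in each rat. Acsl1 was 853, 869.9 and 852 CPM in the Sham rats, 709, 772 and 774 CPM in the HF rats, 776, 779 and 919 CPM in the HFE rats and 812, 851 and 947 CPM in the BAIBA rats. The 3 HF rats lay below the other 9 rats. The fold in HF against Sham was 0.874 (95% interval 0.765 to 0.999), with a log2 fold change of -0.19, SE 0.082, adjusted p = 0.805 by edgeR. Acsl6 was 34.7, 30.6 and 27.2 CPM in the Sham rats, 18.9, 26.7 and 22.5 CPM in the HF rats, 23.7, 36.0 and 32.3 CPM in the HFE rats and 27.7, 25.8 and 26.7 CPM in the BAIBA rats. All HF rats were below all Sham rats, while the HFE and HF rats overlapped. In HF against Sham the fold was 0.735 (95% interval 0.570 to 0.947) (adjusted p = 0.805, edgeR) and in HFE against HF 1.35 (95% interval 0.993 to 1.84) (adjusted p = 0.648, edgeR). Acsl3, Acsl4 and Acsl5 ranged from 7.54 to 13.2, 9.06 to 16.8 and 24.7 to 37.8 CPM. All 5 synthetases had a higher mean in HFE than in HF rats, with log2 fold changes of 0.017 to 0.43, and none passed the test.

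In the carnitine shuttle, Cpt1a and Cpt1b encode the liver and muscle forms of carnitine palmitoyltransferase 1, which makes acylcarnitine at the outer mitochondrial membrane. Cpt1a was 74.3, 74.8 and 81.0 CPM in the Sham rats, 62.2, 91.4 and 92.6 CPM in the HF rats, 58.6, 47.6 and 67.4 CPM in the HFE rats and 71.8, 92.9 and 83.6 CPM in the BAIBA rats. HFE rats 1 and 2 were the lowest of all 12 rats, and HFE rat 3 lay above HF rat 1 and below the other 8 rats. The fold was 0.705 (95% interval 0.519 to 0.957) in HFE against HF, with a log2 fold change of -0.51, SE 0.19, adjusted p = 0.634 by edgeR, and 1.43 (95% interval 1.13 to 1.81) in BAIBA against HFE, with adjusted p = 0.278. Cpt1b was 444, 459.9 and 494 CPM in the Sham rats, 412, 507 and 567 CPM in the HF rats, 437, 461 and 526 CPM in the HFE rats and 404, 455 and 499 CPM in the BAIBA rats. All 4 groups overlapped, and the fold was 1.06 (95% interval 0.866 to 1.30) in HF against Sham, 0.958 (95% interval 0.776 to 1.18) in HFE against HF and 0.913 (95% interval 0.722 to 1.15) in BAIBA against HF. The share of Cpt1b in the summed FPKM of both forms was 89.5%, 91.7% and 89.9% in the HFE rats and 84.8% to 88.3% in the other 9 rats. The HFE rats lay above all others in this share, which in HFE against HF gave an exact permutation p = 0.1, the smallest that 3 rats against 3 allow. This share reuses the Cpt1a values given above and is not a separate result.

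Slc22a5, the carnitine transporter of the cell membrane, was 19.8, 21.4 and 21.4 CPM in the Sham rats, 20.6, 20.3 and 19.1 CPM in the HF rats, 21.4, 21.2 and 24.1 CPM in the HFE rats and 24.5, 25.0 and 33.3 CPM in the BAIBA rats. The 3 BAIBA rats were the highest of all 12, and BAIBA rat 3 stood above the other BAIBA rats. In BAIBA against HF the fold was 1.38 (95% interval 1.09 to 1.74), with a log2 fold change of 0.46, SE 0.14, adjusted p = 0.851 by edgeR, and in BAIBA against Sham 1.33 (95% interval 1.06 to 1.66), with adjusted p = 0.612. Crat, carnitine acetyltransferase, which moves short acyl groups between carnitine and coenzyme A, was 318, 288 and 299 CPM in the Sham rats, 292, 356 and 338 CPM in the HF rats, 332, 289 and 382 CPM in the HFE rats and 403, 375 and 399 CPM in the BAIBA rats. The BAIBA rats lay above all Sham and HF rats, and HFE rat 3 lay among them. The fold was 1.31 (95% interval 1.13 to 1.51) in BAIBA against Sham, with adjusted p = 0.374 by edgeR and 0.0278 by DESeq2, and 1.19 (95% interval 0.996 to 1.43) in BAIBA against HF, with adjusted p = 0.851 by edgeR. Cpt2, which reforms acyl-CoA inside the mitochondrion, and Slc25a20, the carnitine and acylcarnitine carrier of the inner membrane, ranged from 138 to 199.7 and 193 to 249.7 CPM with overlapping groups. Their folds in BAIBA against HF were 1.04 (95% interval 0.812 to 1.32) for Cpt2 and 1.02 (95% interval 0.836 to 1.26) for Slc25a20.

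**Figure D3:**
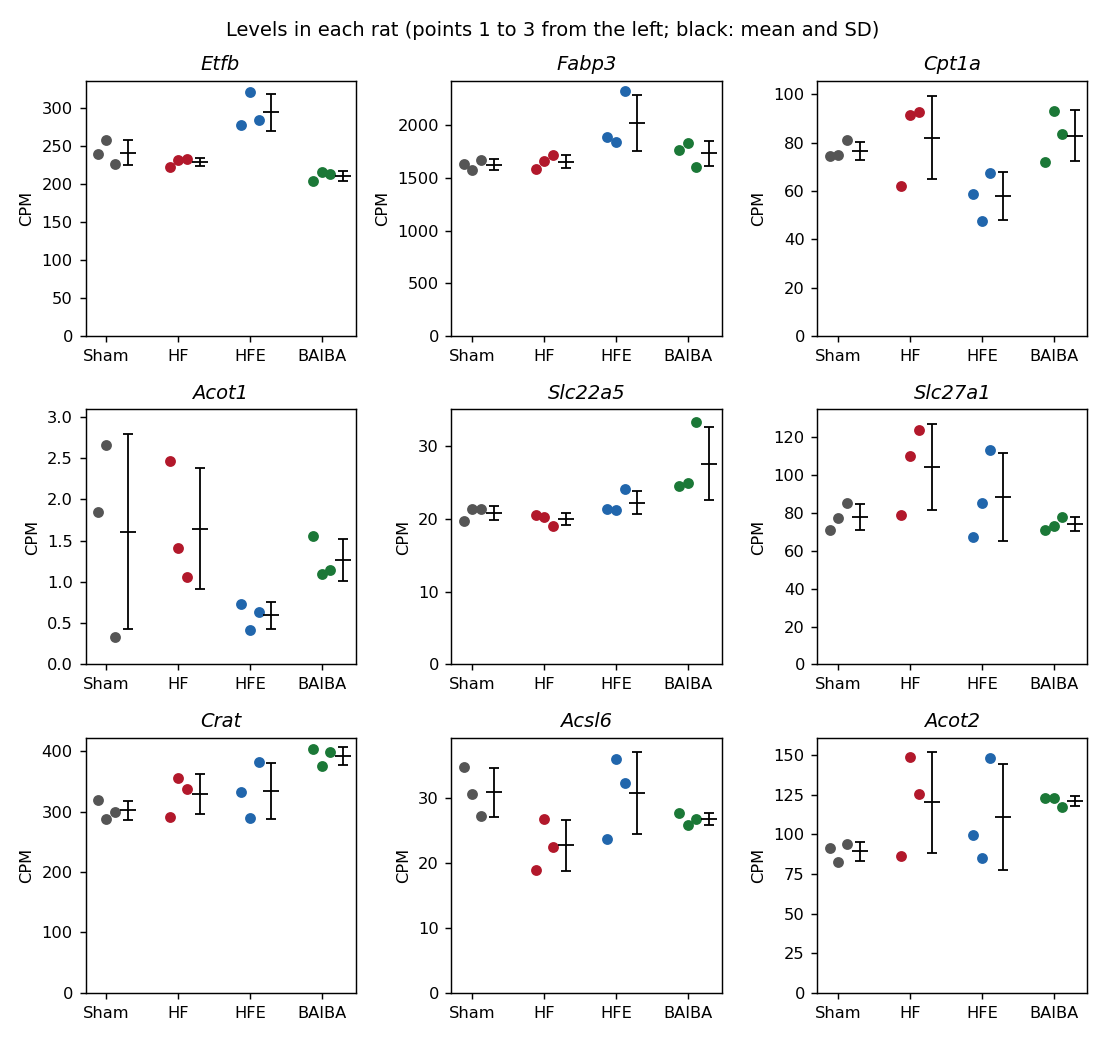
CPM in each rat (points, replicates 1 to 3 from the left in each group) with the group mean and SD in black, for 9 genes named in the text, each on a linear axis from 0. Fabp3 and Etfb were highest in the HFE rats, Slc22a5 in the BAIBA rats, and Acot1 varied most within groups.

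The 4 acyl-CoA dehydrogenases, which carry out the first step of each turn for chains of different length, all had a higher mean in HF than in Sham rats, with log2 fold changes of 0.060 to 0.18, and none passed the test. Acadl was 1143, 1089 and 1213 CPM in the Sham rats, 1074, 1342 and 1483 CPM in the HF rats, 1182, 1242 and 1269 CPM in the HFE rats and 1123, 1184 and 1371 CPM in the BAIBA rats. HF rat 1 was the lowest of all rats and HF rat 3 the highest, so the HF group spanned the other groups. The fold was 1.13 (95% interval 0.916 to 1.39) in HF against Sham, 0.947 (95% interval 0.779 to 1.15) in HFE against HF and 0.943 (95% interval 0.742 to 1.20) in BAIBA against HF. Acads, the short-chain enzyme, was 244, 232 and 256 CPM in the Sham rats and 226, 261 and 292 CPM in the HF rats. It was 285, 268 and 277 CPM in the HFE rats and 279, 202 and 287 CPM in the BAIBA rats. All HFE rats lay above the Sham rats, with a log2 fold change of 0.19 and adjusted p = 0.385 by edgeR in HFE against Sham. Acadvl, the very long-chain enzyme, kept nearly the same proportion to Acadl in every rat: the SD of their log2 ratio over the 12 rats was 0.059, the lowest of the 595 pairs of members, whose median was 0.266 and highest 1.16. Cpt1b and Acadl came next with 0.073. These are descriptions over libraries that share depth and preparation, without a test.

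The electron transfer flavoprotein, a pair of an α subunit (Etfa) and a β subunit (Etfb), hands electrons from the dehydrogenases to its oxidoreductase (Etfdh). Etfb (ENSRNOG00000017851) had the lowest p among the members in HFE against HF, in HFE against Sham, in BAIBA against HFE and among the 4 groups. It was 239, 258 and 226 CPM in the Sham rats, 223, 231 and 233 CPM in the HF rats, 277, 321 and 284 CPM in the HFE rats and 204, 216 and 213 CPM in the BAIBA rats. All HFE rats lay above the other 9 rats, and all BAIBA rats lay below the rats of the other groups. The fold was 1.28 (95% interval 1.12 to 1.48) in HFE against HF, with a log2 fold change of 0.36, SE 0.086, adjusted p = 0.627 by edgeR, and 1.22 (95% interval 1.07 to 1.40) in HFE against Sham, with adjusted p = 0.300 by edgeR. In BAIBA against HFE it was 0.718 (95% interval 0.620 to 0.833), with adjusted p = 0.156 by edgeR, 0.0885 with the replicate block and 0.00193 by DESeq2. Among the 4 groups the adjusted p was 0.266 by edgeR and 4.61e-05 by DESeq2. The call on Etfb thus depended on the test used.

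Etfa was 446, 476 and 450.3 CPM in the Sham rats, 387, 439 and 443 CPM in the HF rats, 421, 422 and 468 CPM in the HFE rats and 439, 401 and 431 CPM in the BAIBA rats, with overlapping HF, HFE and BAIBA rats, and the fold in HFE against HF was 1.03 (95% interval 0.896 to 1.19). The ratio of Etfb to Etfa, in FPKM, was 0.796, 0.807 and 0.745 in Sham, 0.855, 0.783 and 0.779 in HF, 0.977, 1.13 and 0.902 in HFE and 0.690, 0.802 and 0.733 in BAIBA rats. The HFE rats lay above the other 9, with an exact permutation p = 0.1 in HFE against HF, the smallest possible. This ratio reuses the Etfb values given above and is not a separate result. Etfdh ranged from 273 to 357 CPM, with a fold of 1.00 (95% interval 0.836 to 1.21) in HFE against HF. The 3 genes of this step had lower means in HF than in Sham rats, with log2 fold changes of -0.11 to -0.076, and none passed the test.

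**Figure D4:**
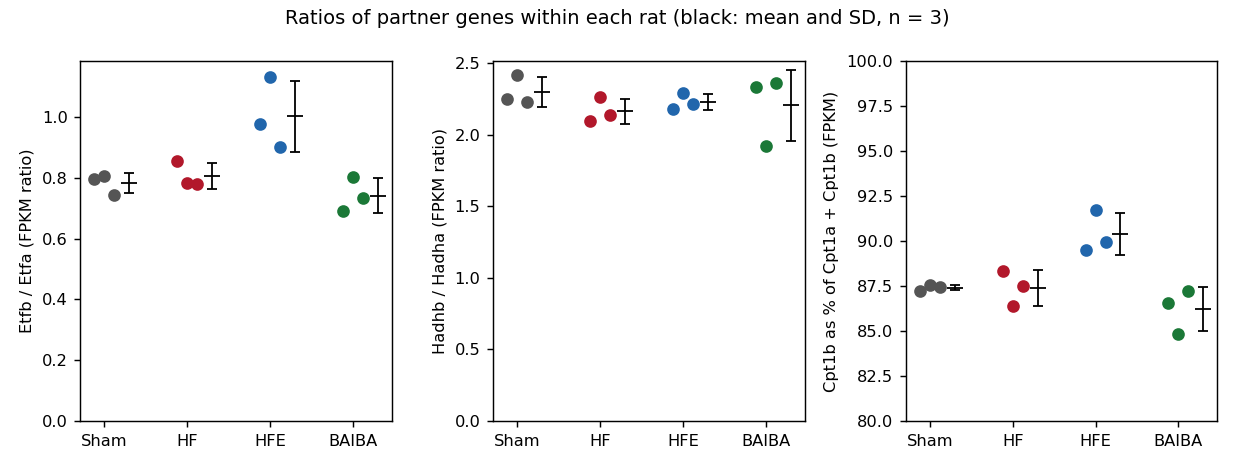
Within-rat ratios of partner genes from FPKM values, with 1 point per rat and the group mean and SD (n = 3) in black: Etfb to Etfa, Hadhb to Hadha, and Cpt1b as a percent of Cpt1a and Cpt1b (axis from 80 to 100). The HFE rats lie above all others for Etfb to Etfa (0.902 to 1.13) and for the Cpt1b share (89.5% to 91.7%), while Hadhb to Hadha stays between 1.92 and 2.42 with overlapping groups.

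The later steps of the spiral are carried out on long chains by the trifunctional protein, whose α and β subunits are Hadha and Hadhb. Hadha ranged from 631 to 805 CPM and Hadhb from 873 to 1229 CPM, and HF rat 1 was the lowest rat for both. Their folds in HF against Sham were 0.994 (95% interval 0.822 to 1.20) and 0.937 (95% interval 0.748 to 1.17), and in BAIBA against HF 0.976 (95% interval 0.798 to 1.20) and 0.993 (95% interval 0.775 to 1.27). The ratio of Hadhb to Hadha in FPKM ran from 1.92 to 2.42, and the SD of the log2 ratio was 0.088, the 6th lowest of 595 pairs, while that of Etfa and Etfb was 0.195 (place 137) and that of Cpt1a and Cpt1b 0.260 (place 282). The start sites of Hadha and Hadhb lie head to head, 301 bases apart, in RefSeq's GRCr8 annotation, and their promoter windows (250 bases before to 50 after the start) share 200 bases. Other pairs had like values, with 0.089 for Acadvl and Hadha and 0.089 for Lpl and Hadha, and whether the shared window bears on the ratio was not tested. Both windows are shown because they overlap. Capitals mark the shared bases, which read as reverse complements of each other. Hadha lies on the + strand at chr6:31907551-31907850 and Hadhb on the - strand at chr6:31907451-31907750.
Hadha: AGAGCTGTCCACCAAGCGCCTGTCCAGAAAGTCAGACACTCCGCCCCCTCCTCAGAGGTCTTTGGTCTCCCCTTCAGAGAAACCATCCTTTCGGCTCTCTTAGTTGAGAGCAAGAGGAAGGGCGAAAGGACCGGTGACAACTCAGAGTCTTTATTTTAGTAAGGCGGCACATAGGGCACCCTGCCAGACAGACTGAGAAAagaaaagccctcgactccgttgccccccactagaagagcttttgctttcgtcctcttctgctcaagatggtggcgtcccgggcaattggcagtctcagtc
Hadhb: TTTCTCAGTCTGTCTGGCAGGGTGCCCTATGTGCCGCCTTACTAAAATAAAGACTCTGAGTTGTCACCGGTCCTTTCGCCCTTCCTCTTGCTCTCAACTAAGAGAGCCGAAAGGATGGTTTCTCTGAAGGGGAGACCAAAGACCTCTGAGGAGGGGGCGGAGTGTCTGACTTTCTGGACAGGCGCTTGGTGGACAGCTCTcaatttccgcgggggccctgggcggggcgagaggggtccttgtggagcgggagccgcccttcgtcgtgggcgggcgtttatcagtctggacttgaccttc

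The windows of the electron transfer flavoprotein are shown because DESeq2 called Etfb, and they lie on different chromosomes in GRCr8. The Etfb window is at chr1:102988249-102988548 on the + strand and the Etfa window at chr8:64787916-64788215 on the - strand. Capitals in Etfa mark a partial match to a receptor motif described below.
Etfb: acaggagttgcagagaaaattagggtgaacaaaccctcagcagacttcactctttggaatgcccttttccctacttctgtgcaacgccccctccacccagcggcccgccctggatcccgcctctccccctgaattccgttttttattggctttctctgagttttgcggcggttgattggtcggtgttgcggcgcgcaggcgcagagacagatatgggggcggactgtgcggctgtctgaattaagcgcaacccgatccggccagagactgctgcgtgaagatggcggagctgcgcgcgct
Etfa: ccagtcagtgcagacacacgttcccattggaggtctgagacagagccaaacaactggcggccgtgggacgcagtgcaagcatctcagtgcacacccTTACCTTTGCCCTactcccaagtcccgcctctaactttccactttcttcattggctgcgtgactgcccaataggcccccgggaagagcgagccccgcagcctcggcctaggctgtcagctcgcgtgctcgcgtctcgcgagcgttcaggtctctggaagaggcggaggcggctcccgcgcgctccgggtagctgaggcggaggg

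Of the other enzymes of these steps, Hadh, the short-chain hydroxyacyl-CoA dehydrogenase, ranged from 222 to 346 CPM, with a fold of 0.895 (95% interval 0.678 to 1.18) in HF against Sham. Acaa2, the mitochondrial thiolase, ranged from 372 to 845 CPM and varied between rats of 1 group, from 372 to 768 CPM within BAIBA. Acaa1a, the peroxisomal thiolase, ranged from 15.3 to 25.4 CPM and Echs1 from 1.48 to 3.38 CPM. Of the 6 genes of these steps, 5 had a lower and 1 a higher mean in HF than in Sham rats, and 5 a higher and 1 a lower mean in HFE than in HF rats. None passed the test in either comparison.

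Eci1 and Decr1 prepare unsaturated chains by moving or reducing double bonds. Eci1 was 103, 123 and 138 CPM in the Sham rats, 113, 167 and 124 CPM in the HF rats, 147, 141 and 171 CPM in the HFE rats and 162, 135 and 149.7 CPM in the BAIBA rats. Sham rat 1 was the lowest, and all HFE rats lay above the Sham rats. The fold was 1.27 (95% interval 1.05 to 1.53) in HFE against Sham and 1.23 (95% interval 1.00 to 1.52) in BAIBA against Sham. Decr1 was 99.9, 108.7 and 101 CPM in the Sham rats, 109.3, 134 and 112 CPM in the HF rats, 115, 116 and 119.9 CPM in the HFE rats and 138, 121 and 122 CPM in the BAIBA rats. All HF, HFE and BAIBA rats lay above the 3 Sham rats. The folds were 1.14 (95% interval 0.971 to 1.35) in HF, 1.14 (95% interval 1.02 to 1.27) in HFE and 1.24 (95% interval 1.06 to 1.44) in BAIBA against Sham, with adjusted p of 0.808, 0.381 and 0.579 by edgeR. The 3 comparisons use the same Sham rats.

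Malonyl-CoA is made by the acetyl-CoA carboxylases Acaca and Acacb and removed by the decarboxylase Mlycd. Acacb, the form at the mitochondrial surface of muscle, was 421, 461 and 366 CPM in the Sham rats, 431, 453 and 443 CPM in the HF rats, 342, 391 and 516 CPM in the HFE rats and 365, 465 and 464 CPM in the BAIBA rats. The groups overlapped, with HFE rat 1 lowest and HFE rat 3 highest of the 12. The fold was 1.06 (95% interval 0.896 to 1.26) in HF against Sham, 0.940 (95% interval 0.742 to 1.19) in HFE against HF and 0.973 (95% interval 0.799 to 1.19) in BAIBA against HF. Acaca, the cytosolic form, was 17.0, 11.2 and 17.2 CPM in the Sham rats, 19.7, 12.9 and 16.6 CPM in the HF rats, 11.1, 12.1 and 14.6 CPM in the HFE rats and 11.5, 14.0 and 18.3 CPM in the BAIBA rats. All groups overlapped, and the folds were 1.08 (95% interval 0.759 to 1.54), 0.769 (95% interval 0.569 to 1.04) and 0.890 (95% interval 0.626 to 1.26) in the same comparisons. Acacb held 94.0% to 96.8% of the summed FPKM of both carboxylases. Mlycd ranged from 76.7 to 128 CPM, and the ratio of Acacb to Mlycd in FPKM from 0.726 to 1.34. The 3 genes had a lower mean in HFE and in BAIBA than in HF rats, with log2 fold changes of -0.38 to -0.089 and -0.17 to -0.039, and none passed the test.

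Acot1 and Acot2 encode the cytosolic and the mitochondrial acyl-CoA thioesterase, which release free fatty acid from coenzyme A, and the genes are close copies whose reads could be split between them by the counting. Acot1 was 1.85, 2.66 and 0.328 CPM in the Sham rats, 2.47, 1.41 and 1.06 CPM in the HF rats, 0.732, 0.415 and 0.633 CPM in the HFE rats and 1.56, 1.09 and 1.15 CPM in the BAIBA rats, from only 5 to 43 counts per rat. The Sham rats spanned the whole range, from the lowest to the highest value of the 12, and the HFE rats lay below the HF and BAIBA rats. The fold in HFE against HF was 0.364 (95% interval 0.175 to 0.757), with a log2 fold change of -1.46, SE 0.45, adjusted p = 0.627 by edgeR, and no other member had a larger change in that comparison. Acot2 was 91.4, 82.7 and 94.1 CPM in the Sham rats, 86.2, 149 and 126 CPM in the HF rats, 99.3, 84.9 and 148 CPM in the HFE rats and 123, 123 and 117 CPM in the BAIBA rats. The BAIBA rats lay above the Sham rats, and the HF and HFE groups each held rats at the level of Sham and rats above BAIBA. In BAIBA against Sham the fold was 1.36 (95% interval 1.18 to 1.57), with adjusted p = 0.279 by edgeR and 0.0163 by DESeq2, and in HF against Sham 1.34 (95% interval 0.978 to 1.84), with adjusted p = 0.805 by edgeR.

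Plin5 coats the lipid droplets of oxidative tissue and ties them to mitochondria. It was 17.1, 17.5 and 36.0 CPM in the Sham rats, 24.1, 24.9 and 32.1 CPM in the HF rats, 33.3, 32.0 and 36.3 CPM in the HFE rats and 38.5, 27.5 and 39.1 CPM in the BAIBA rats. Sham rats 1 and 2 were the lowest of the 12 and Sham rat 3 lay among the highest. The fold was 1.25 (95% interval 1.02 to 1.54) in HFE against HF and 1.29 (95% interval 0.973 to 1.72) in BAIBA against HF, with adjusted p of 0.642 and 0.851 by edgeR.

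Single rats were high or low over many members at once. HF rat 1 was the lowest of the 12 rats for 11 of the 35 genes and below the gene mean for 29 of them. HFE rat 3 was above the mean for 30, BAIBA rat 3 for 27 and HF rat 2 for 26. The mean over members of log2(CPM + 0.1) minus the gene mean was -0.129 in HF rat 1, 0.0971 in HF rat 2 and 0.0605 in HF rat 3, so that the HF rats differed from each other by more than the group means, which were -0.0430 in Sham, 0.00946 in HF, 0.00342 in HFE and 0.0301 in BAIBA. Sham rats lay between -0.0615 and -0.0145, HFE rats between -0.0685 and 0.132 and BAIBA rats between -0.0594 and 0.133. Without HF rat 1 the median log2 fold change of the members was 0.11 in HF against Sham, -0.069 in HFE against HF and -0.058 in BAIBA against HF, so that leaving out this rat turned the sign of the median in the last 2 comparisons. Without HFE rat 3 it was -0.012 in HFE against HF, and without BAIBA rat 3 -0.053 in BAIBA against HF.

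Marker sums also differed between single rats and, for some lists, between groups. HF rat 1 had the highest summed level of the 5 adipocyte markers, 24.6 CPM, followed by BAIBA rat 3 with 17.5 CPM, while the other 10 rats lay between 0.259 and 7.55 CPM, and 4 of the 5 markers were at 0 in at least 1 rat. These 2 rats lay at opposite ends over the members, at -0.129 and 0.133. The summed level of 9 genes of mitochondrial content was 8209 CPM in HF rat 1 and 10212 CPM in HF rat 3, and ran from 8177 to 10212 CPM over all rats. BAIBA rat 1 had the highest sum of the 7 fibroblast and scar markers, 2098 CPM, where the others had 1121 to 1719 CPM, and the highest of the 5 macrophage markers, 160 CPM, where the others had 51.2 to 134 CPM, and over the members it was above the gene mean for 19 and below it for 16. The macrophage sums of the HFE rats, 51.2 to 71.17 CPM, lay below all other rats, the next being HF rat 1 with 71.32 CPM. The 5 erythroid markers summed to 527 to 708 CPM in BAIBA, 266 to 385 CPM in Sham, 408 to 463 CPM in HFE and 240 to 687 CPM in HF rats. Of the 4 atrial markers, 3 were lower and 1 higher in BAIBA than in Sham rats. All 4 had an unadjusted p under 0.05 by edgeR, beside 7.41% of all genes, and 0 passed an adjusted p of 0.05. The part of these values in the results was not tested.

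**Figure D5:**
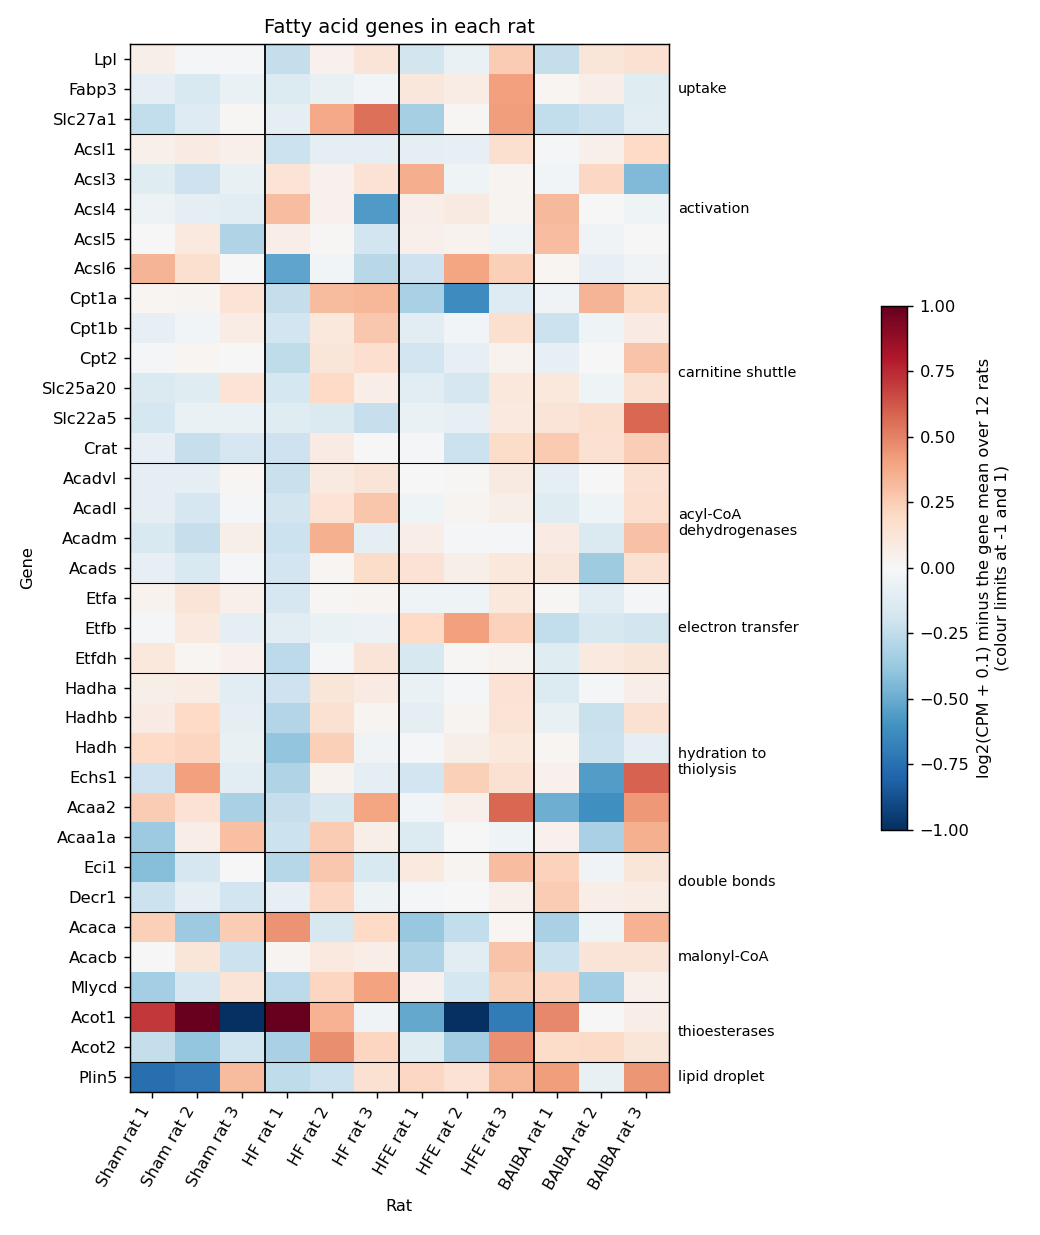
Each cell is log2(CPM + 0.1) of a gene (rows, in the order of the pathway) in a rat (columns) minus that gene's mean over the 12 rats, with colours limited at -1 and 1. HF rat 1 is below the mean for 29 of 35 genes and HFE rat 3 above it for 30, whereas no group of 3 columns has 1 colour throughout.

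Of 63 further genes of fatty acid handling (triglyceride handling, other mitochondrial and peroxisomal oxidation, and regulators), 59 were tested in HF against Sham and in HFE against HF and 58 in BAIBA against HF, and 0 passed an adjusted p of 0.05 by edgeR in these 3 comparisons. At an unadjusted p under 0.05 there were 7 higher and 4 lower in HF against Sham (18.6%, beside 6.0% of all genes tested), 4 higher and 2 lower in HFE against HF (10.2% beside 7.62%) and 2 higher and 4 lower in BAIBA against HF (10.3% beside 5.55%). In BAIBA against Sham 8 of 59 passed it (13.6% beside 7.41%), in HFE against Sham 7 (11.9% beside 11.2%) and in BAIBA against HFE 14 (23.7% beside 9.57%), with 0, 0 and 1 gene at an adjusted p under 0.05, where 0.108% of all genes passed in BAIBA against HFE. That gene was G0s2, an inhibitor of adipose triglyceride lipase, at 28.0, 27.1 and 23.8 CPM in HFE and 13.8, 11.4 and 13.8 CPM in BAIBA rats. It was 10.3, 10.6 and 16.0 CPM in Sham and 15.9, 16.2 and 31.2 CPM in HF rats. The BAIBA rats lay within the range of the Sham rats, and the HFE rats lay above it. All BAIBA rats lay below the HFE rats, and G0s2 was lower in BAIBA than in HFE rats by edgeR's quasi-likelihood test (log2 fold change of -1.02, SE 0.13, adjusted p = 0.0493). The call rested on every rat, since with 1 rat left out the adjusted p was 0.0510 to 0.286, and it passed in 5 of 11 other settings (adjusted p 3.78e-06 to 0.383). The lowest p in HF against Sham was that of Pex11a, a peroxisome division protein, with 2.83, 2.92 and 2.82 CPM in Sham and 4.53, 7.91 and 6.51 CPM in HF rats, which do not overlap (log2 fold change of 1.14, SE 0.25, adjusted p = 0.737, edgeR). It was followed by Lipe, hormone-sensitive lipase (log2 fold change of 0.51, SE 0.15, adjusted p = 0.805), and Prkab1, a β subunit of AMP-activated protein kinase (log2 fold change of -0.34, SE 0.10, adjusted p = 0.805). In HFE against HF it was that of Angptl4, a secreted inhibitor of lipoprotein lipase, at 1.15, 10.4 and 17.8 CPM in HF and 1.13, 0.415 and 0.760 CPM in HFE rats. HF rats 2 and 3 were far above the rest, and HF rat 1 was near the HFE rats, with a log2 fold change of -3.65, SE 1.01, adjusted p = 0.627 by edgeR. Echdc2 (log2 fold change of 0.26, SE 0.09, adjusted p = 0.627) and Pccb (log2 fold change of 0.23, SE 0.081, adjusted p = 0.627) came next, of which Pccb is a subunit of propionyl-CoA carboxylase. In BAIBA against HF the lowest were Prkab1 (log2 fold change of 0.32, SE 0.12, adjusted p = 0.851), the monoglyceride lipase Mgll (log2 fold change of -0.53, SE 0.21, adjusted p = 0.851) and G0s2 (log2 fold change of -0.70, SE 0.28, adjusted p = 0.851). Prkab1 was 70.0, 82.1 and 70.9 CPM in Sham, 63.5, 52.8 and 60.6 CPM in HF and 65.6, 81.4 and 74.2 CPM in BAIBA rats. The HF rats lay below the Sham and BAIBA rats, and overlapped the HFE rats at 52.2, 62.7 and 72.6 CPM. Other subunits of this kinase went the other way in BAIBA against HF. Prkag1 was 162 to 185 CPM in BAIBA and 190 to 223 CPM in HF rats, and Prkag2 22.4 to 31.2 and 34.2 to 37.7 CPM.

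RefSeq promoter windows of the GRCr8 assembly were found for 32 of the 38 genes and searched on both strands for motifs of receptors known to bind near such genes. The direct repeat bound by PPAR with its partner RXR consists of copies of AGGTCA with 1 base between them. It was present exactly in 0 of 32 windows, beside 18 of 33469 (0.0538%) of all promoter windows. With at most 2 mismatches over both copies it was found in 6 windows (18.8%), beside 1263 (3.77%) of all windows. The ERR motif TNAAGGTCA was in 0 of 32, beside 401 (1.20%) of all windows, and can overlap a copy of AGGTCA. A match is a description of letters in this window and not a site, and no match says nothing of the factor. The partial matches are shown in capitals with 8 bases on either side, as they read on the gene's strand, because Crat is among the genes described above and Slc25a20, Acadvl and Acacb stand at the shuttle, the first step and its malonyl-CoA brake. In Acacb, Etfa and Echs1 the repeat is on the opposite strand. The Acadvl match has 1 mismatch and begins 17 bases before the start.
Acadvl: gggagaagAGGTCAGTGGTCAaggcttca
Slc25a20: cttaatgtAGGTGAAAGGTCGgtgtagcc
Crat: gacgttcaAGGACACCGGTCAgacttgga
Acacb: cctggagaTGACCTTTGTCCCacatgctt
Etfa: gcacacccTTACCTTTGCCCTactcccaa
Echs1: ccgctaaaAGACCTCTGATCTgatcttcc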

How the data were processed

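Reads were trimmed by the authors, aligned with HISAT2, assembled into further genes with StringTie and counted per gene with featureCounts (Subread). The submitters' processing notes name the mouse build mm9, although the gene identifiers are those of rat. The rat build, annotation release, tool versions and use of strand are not given in the sources used here. The deposited counts are raw whole numbers per gene, and the deposited FPKM values were made by the authors from them and the gene lengths. Members and lists were chosen with earlier results of these data known. Counts were tested in R 4.3.3 with edgeR 4.0.16 (TMM, filterByExpr, robust quasi-likelihood fits on the 2 groups compared, or on all 4 for the test among groups), with Benjamini-Hochberg adjustment over all genes tested. A gene was called at an adjusted p under 0.05, without a limit on the fold change. CPM were TMM-scaled over the 12 rats. Single genes and ratios were also compared by two-sided exact permutation tests over 20 assignments. The fits were also run on simulated counts with the same dispersion for every gene, which checks the code and not the power for these members.

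Values in every rat were given for members called by any tool run, for genes of the proteins the study measured by Western blot, for the 3 highest members and for the 3 largest changes in the comparisons of HF with Sham and of HFE and BAIBA with HF. Members with an unadjusted p under 0.05 and Etfa were added after their values were seen. Of the further pathway genes, those with the 3 lowest p in each of these comparisons were named. Prkag1 and Prkag2 were added after their values were seen. Cd36 was not analysed here. Alternatives were DESeq2 1.42.0, RLE normalization, library-size scaling, no low-count filter or a minimum of 10 counts per library, 1 fit over the 12 rats, a replicate block, leaving out each rat, limma 3.58.1 on log2(FPKM + 1) and log2(FPKM + 0.1), Ensembl genes only, a log2 fold limit of 1 and an unadjusted p. Same-numbered rats are different animals. Their deviations correlated above 0.1 in all 3 pairs only in BAIBA against HFE (0.139 to 0.265). Replicates of a group differed by more than sampling noise, with a chi-square per degree of freedom of 11.8 to 33.7. Proteins were not compared.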

Additional observations from a re-analysis of the deposited data

How the results depend on the processing

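No setting other than DESeq2 and an unadjusted p gave a called member. An unadjusted p under 0.05 gave 3 members in HF against Sham, 5 in HFE against HF, 2 in BAIBA against HF, 5 in BAIBA against Sham, 6 in HFE against Sham and 3 in BAIBA against HFE. DESeq2 is the test named in the paper's methods, there with a log2 fold limit of 1. Without that limit it called 2 members in BAIBA against Sham (Acot2, log2 fold change 0.43, and Crat, 0.38), 1 in BAIBA against HFE (Etfb, -0.48) and 1 among the 4 groups (Etfb). These pairwise changes lie inside the limit. The median log2 fold change of the members lay between -0.023 and 0.082 with 1 rat left out in BAIBA against Sham, the lowest without BAIBA rat 3, and between -0.020 and 0.12 in HFE against Sham, the lowest without HFE rat 3. For the 32 values of single members in 1 comparison that were chosen by low p, large change or a measured protein, 534 of 542 recomputed values kept their direction and side of the threshold, 3 passed the threshold only under the alternative, and 5 changed sign, all in BAIBA against HF with 1 rat left out. These were Acot1 at 0.044 and Cpt1a at -0.15 without HF rat 1, Cpt1a at -0.080 without BAIBA rat 2, Acadl at 0.021 without HF rat 3 and Acacb at 0.073 without BAIBA rat 1. With 1 rat left out the log2 fold changes ran from -0.61 to 0.044 for Acot1, -0.15 to 0.11 for Cpt1a, -0.20 to 0.021 for Acadl and -0.096 to 0.073 for Acacb. The cause was not tested.

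Counts over all genes moved more. DESeq2 called 52 genes in HF against Sham, 46 in HFE against HF, 38 in BAIBA against HF, 121 in BAIBA against Sham, 171 in HFE against Sham, 326 in BAIBA against HFE and 333 among the 4 groups. Without a filter edgeR called 0, 2, 2, 41, 72, 50 and 2 in the same order. With the replicate block it called 0, 0, 0, 9, 1, 50 and 5, with a fit of all 12 rats 0, 0, 1, 0, 0 and 3, with library-size scaling 0, 0, 0, 8, 0, 7 and 4, with Ensembl genes only 0, 0, 0, 2, 0 and 8, and with at least 10 counts 0, 0, 1, 2, 0, 14 and 1. limma called 0 to 7. With 1 rat left out the counts ran from 0 to 4, 0 to 0, 0 to 4, 4 to 16, 0 to 9, 3 to 28 and 0 to 10. The replicate block changed the call of no member. The call of G0s2 in BAIBA against HFE, examined after its value was seen, was lost with library-size scaling, in the fit of all 12 rats, by limma, with Ensembl genes only and without any 1 rat, at log2 fold changes of -1.09 to -0.93.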

Other observations

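A gene whose deposited description names similarity to the fatty acid translocase CD36, RGD1565355 (ENSRNOG00000040108), was looked up after values had been seen. It was 339, 361 and 364 CPM in the Sham rats, 292, 541 and 443 CPM in the HF rats, 317, 333 and 367 CPM in the HFE rats and 268, 334 and 395 CPM in the BAIBA rats. HF rats 2 and 3 were the highest of the 12 rats and HF rat 1 was below all Sham rats, so the HF group spanned the Sham group. Its relation to Cd36 was not tested.

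Pdk4, a kinase that turns off pyruvate dehydrogenase and a known PPAR target, was chosen after its values were seen. It was 83.0, 57.0 and 133 CPM in the Sham rats, 69.1, 343 and 709 CPM in the HF rats, 47.5, 38.1 and 98.4 CPM in the HFE rats and 108, 228 and 209 CPM in the BAIBA rats. HF rats 2 and 3 were the highest of the 12, and HF rat 1 lay within the range of the Sham rats. By edgeR's quasi-likelihood test the log2 fold change was 2.04 (SE 0.85, adjusted p = 0.805) in HF against Sham and -2.61 (SE 0.90, adjusted p = 0.634) in HFE against HF. Angptl4 had the same 2 HF rats on top, and in BAIBA rats it was 3.29, 3.53 and 2.47 CPM, with Sham rats at 0.115, 0.972 and 1.44 CPM.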
